A study of Rattus norvegicus with 8 samples.

Results

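The genes described here belong to the programme by which a muscle fibre breaks down its own proteins and organelles. They are the ubiquitin ligase genes Fbxo32, Trim63, Fbxo30 and Traf6, the transcription factor genes Foxo1, Foxo3 and Klf15, and the autophagy genes Becn1, Map1lc3b and Sqstm1. Members were all probes whose gene symbol in the array's annotation is 1 of these 10 genes, which gave 11 of 22523 probes for 9 of the 10 genes. Foxo1 had no probe by that rule. Sqstm1 had 3 probes and each other gene had 1.

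The study compared the thigh muscle of 4 Han Wistar rats fed compound 197, a sulfonyl isoxazoline, at 150 ppm in the diet for 28 days with that of 4 rats of the same stock fed standard laboratory chow. The series title concerns foreign compounds that are toxic to the mitochondria of skeletal muscle. The labels name the tissue as femoris skeletal muscle and give no age, sex or genetic change for either group. Total RNA of each rat was read on 1 Illumina rat beadchip, on which short probes attached to beads report a gene by their brightness.

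In the ubiquitin-proteasome route, a ligase attaches ubiquitin chains to a chosen protein, which the proteasome then digests. In macroautophagy, a membrane sac forms around cargo, is sealed, and fuses with a lysosome. In mouse and rat muscle both routes are switched on during fasting, denervation and glucocorticoid excess, largely through FOXO transcription factors, which insulin and AKT signalling otherwise hold in the cytoplasm.

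Muscle of the rats fed compound 197 had more Becn1, Klf15 and Fbxo30 signal and less Traf6 signal than control muscle, while Fbxo32 and Trim63, the best known atrophy ligases, did not pass the test. Becn1 was 6.01-fold higher (95% interval 4.83 to 7.49), Klf15 was 2.41-fold higher, Fbxo30 was at least 1.95-fold higher and Traf6 was 2.10-fold lower. The sizes for Fbxo30 and Traf6, which lie near background, depended on the background correction. Without it the Fbxo30 bound was 1.38-fold and the log2 change of Traf6 was -0.52. Of the 11 member probes, all of which were bright enough to be tested, 3 were called higher, 1 was called lower and 7 were not called. Of the 3, Fbxo30 was bright enough on the compound 197 arrays alone, so it had to be higher there to be tested. Over all 9873 probes tested, 16.3% were called higher and 24.2% lower. The members' shares were 27.3% and 9.09%, and with 11 probes nothing particular to them is read from these counts. The median log2 change of the members was -0.20, beside -0.18 over all tested probes. A call means an adjusted p under 0.05 from limma with Benjamini-Hochberg adjustment over all 9873 probes. Changes are differences of normalized log2 intensity, compound 197 minus control, ± SE with 4 arrays per group.

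The arrays differed between the groups before any gene was considered. A probe counted as above background on an array where its detection p was under 0.05, which held for 9743 to 10498 probes per compound 197 array and 8310 to 9507 per control array. The lowest raw intensity was 51.1 to 55.5 on compound 197 arrays and 59.3 to 61.6 on control arrays. Pearson r between array profiles was 0.960 to 0.987 for arrays of the same group and 0.889 to 0.931 for arrays of different groups. All 11 skeletal muscle marker probes were above background, with 2 called higher, Myh4 by 3.63 ± 0.26 and Tnni2 by 1.48 ± 0.12. Myh7 (-0.15 ± 1.94) and Tnnt1 (-0.41 ± 1.49) had the widest errors of the 11 and were not called. The summed normalized intensity of the 11 was 311494 to 356358 in compound 197 rats and 281711 to 322641 in controls. Among markers of other cells, 1 of 4 tested adipocyte probes was called higher (Fabp4, by 0.88 ± 0.21, adjusted p = 0.00988 in limma), as was 1 of 3 tested smooth muscle and pericyte probes (Rgs5, by 0.47 ± 0.086). The adipocyte sum ranged from 3496 to 13482 in compound 197 rats and from 3183 to 5173 in controls, and Retn and Lep were above background on no array. No tested endothelial (4), fibroblast (7), macrophage and leukocyte (2), Schwann cell (3), erythroid (2) or satellite cell (3) marker probe was called. Itgam, Adgre1, Cdh5, Sox10, Hba-a2, Pax7 and Calcr were above background on no array, nor was 1 of the 2 Myf5 probes. In whole muscle, fewer cells of a type and less RNA per cell cannot be told apart. The part of these differences in the values below was not tested.

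The sign of small changes depended on the scaling between arrays. The median change of all tested probes was -0.18 with quantile normalization, which is used throughout, 0.31 with median scaling and -0.01 with cyclic loess. A fall is therefore followed by its value with median scaling where that lay above 0.

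Promoter sequences are shown for the members where the data bear on transcription factors of the same set. RefSeq promoter windows of 250 bases upstream of the gene start (GRCr8 assembly) were available for 6 of the 10 genes, namely Trim63, Fbxo30, Foxo1, Klf15, Map1lc3b and Sqstm1. Fbxo32, Foxo3, Traf6 and Becn1 had no entry. The Trim63 window is chr5:151816986-151817235 on the + strand, the Fbxo30 window is chr1:7475589-7475838 on the + strand and the Klf15 window is chr4:124522765-124523014 on the + strand. Capitals mark the FOXO motif GTAAACA and the glucocorticoid receptor site AGAACA (one arm of its palindrome), searched on both strands.
Trim63: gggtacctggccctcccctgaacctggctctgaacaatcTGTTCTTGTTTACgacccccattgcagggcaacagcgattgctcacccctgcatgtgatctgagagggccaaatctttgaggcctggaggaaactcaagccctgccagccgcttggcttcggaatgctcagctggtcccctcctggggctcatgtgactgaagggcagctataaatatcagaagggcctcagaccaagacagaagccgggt
Fbxo30: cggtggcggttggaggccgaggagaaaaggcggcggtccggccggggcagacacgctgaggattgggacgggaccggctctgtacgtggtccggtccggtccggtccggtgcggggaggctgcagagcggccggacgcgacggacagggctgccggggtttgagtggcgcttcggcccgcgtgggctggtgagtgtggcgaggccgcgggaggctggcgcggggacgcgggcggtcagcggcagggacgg
Klf15: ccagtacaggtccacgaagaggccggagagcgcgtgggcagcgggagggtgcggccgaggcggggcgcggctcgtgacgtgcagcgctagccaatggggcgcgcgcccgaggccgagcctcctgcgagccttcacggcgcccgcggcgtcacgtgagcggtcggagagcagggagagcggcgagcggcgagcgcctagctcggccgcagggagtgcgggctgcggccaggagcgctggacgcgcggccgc
Trim63 alone among the 6 windows held either motif. It has 1 FOXO motif, its first base at position -205 from the gene start, directly next to 1 receptor site at -211, and both read on the opposite strand with no shared base. The FOXO motif occurs in 3.21% and the receptor site in 17.5% of the 33469 RefSeq promoter windows of this length. The shorter FOXO core TAAACA, which lies within that motif, was likewise found in Trim63 alone and occurs in 12.1% of windows. The E-box CANNTG occurred 3 times in Trim63 and 1 time each in Klf15 and Map1lc3b, and is found in 65.5% of all windows. The KLF-type motif CACCC occurred 2 times in Map1lc3b and 1 time each in Trim63, Klf15 and Sqstm1, and is found in 49.2% of windows. These matches describe letters in a short window and no binding was measured.

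Fbxo32 encodes atrogin-1, the F-box protein that brings substrates to an SCF ligase in striated muscle. Its normalized log2 intensity was 8.84, 8.28, 8.41 and 7.85 in compound 197 rats 1 to 4, against 7.87, 8.59, 8.76 and 9.43 in control rats 1 to 4. The control values ran from 7.87 to 9.43 and took in 3 of the 4 compound 197 values. The change was -0.32 ± 0.32 (95% interval -1.04 to 0.41, adjusted p = 0.454 in limma), and it was 0.27 with median scaling. Its size rested on single control rats: it was -0.58 (adjusted p = 0.128) without control replicate 1 and -0.06 (adjusted p = 0.874) without control replicate 4. At 4 rats per group the interval covers changes in both directions.

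Trim63 encodes MuRF1, a RING-finger ligase of the sarcomere that marks myosin heavy chain for digestion in mouse muscle. Its log2 intensity was 11.96, 11.75, 11.37 and 11.39 in compound 197 rats, against 11.42, 11.34, 10.93 and 10.69 in control rats. Compound 197 rats 1 and 2 lay above all controls, and rats 3 and 4 lay below the highest control only. The change was 0.52 ± 0.20 (95% interval 0.07 to 0.98, adjusted p = 0.0658 in limma), above the threshold for a call. It passed with cyclic loess (0.74 ± 0.20, adjusted p = 0.0203), with median scaling (1.12 ± 0.34, adjusted p = 0.0339) and without control replicate 1 (0.63, adjusted p = 0.0443), and lay between 0.39 and 1.12 under the 22 alternatives run. With quantile normalization, the log2 ratio of Trim63 to Fbxo32 on the same array was 3.27 ± 0.28 in compound 197 rats and 2.43 ± 0.96 in controls (SD, n = 4 each). This difference of 0.84 had an exact two-sided permutation p of 0.171 (0.686 adjusted over 4 probe pairs), where the smallest p that 4 against 4 allows is 0.0286.

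Fbxo30 encodes an F-box ligase, also called MUSA1, that is induced after denervation in mouse muscle and restrained there by BMP signalling. The probe read 6.73, 6.45, 6.39 and 6.38 log2 units in compound 197 rats, against 5.09, 5.27, 5.17 and 5.13 in controls. All 4 compound 197 arrays were above background and above every control, and none of the 4 control arrays was above background. Raw intensities were 191.4, 148.8, 163.0 and 168.4 in compound 197 rats, against 97.5, 100.3, 95.03 and 101.2 in controls. The fitted change was 1.32 ± 0.11 (adjusted p = 1.84e-05 in limma). Since the control level is only a bound, the rise is given as at least 1.95-fold, the compound 197 mean against the higher of each control array's detection floor and the probe's own signal. Without background correction the same bound was 1.38-fold. The probe passed the detection filter through the compound 197 arrays alone, so it had to be higher there to be tested. Its adjusted p is therefore no independent support for the rise. The probe drops below the filter when any 1 compound 197 array is left out. It remained called without each control array in turn, which is no independent support for the same reason.

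Traf6 encodes a RING-finger ligase that builds signalling ubiquitin chains upstream of NF-kB, and its loss in mouse muscle reduces denervation atrophy. Its log2 intensity was 5.48, 5.75, 5.18 and 5.47 in compound 197 rats, against 6.39, 6.36, 6.71 and 6.71 in controls. Every compound 197 value lay below every control value, and compound 197 rat 3 was not above background. Traf6 fell by 1.07 ± 0.15 (95% interval -1.41 to -0.74, adjusted p = 0.000552 in limma), and stayed below 0 with median scaling (-0.63, adjusted p = 0.0230) and with cyclic loess (-0.93). The raw intensities were 109.4, 113.8, 97.1 and 109.0 in compound 197 rats and 155.7, 145.5, 155.6 and 174.7 in controls. Without background correction the fall was smaller (-0.52, adjusted p = 0.00142).

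Foxo3 encodes a FOXO factor that drives ligase and autophagy genes in mouse muscle when AKT is inactive. Log2 intensities were 5.36, 5.79, 5.67 and 5.81 in compound 197 rats, against 5.14, 6.40, 5.09 and 5.57 in controls. The probe was above background on all 4 compound 197 arrays and on control array 2 alone, which was also the highest of the 8. The change was 0.10 ± 0.27 (95% interval -0.52 to 0.73, adjusted p = 0.782 in limma), and 0.40 (adjusted p = 0.0945) without control replicate 2. A probe this close to background limits what could be seen, and FOXO activity, which is set by phosphorylation and location, was not measured.

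Klf15 encodes a Krüppel-like factor that glucocorticoids induce in muscle and that favours amino acid breakdown. In rat muscle it acts with the glucocorticoid receptor on the Trim63 and Fbxo32 promoters. The Klf15 log2 intensity was 9.03, 9.29, 8.33 and 8.42 in compound 197 rats, against 7.68, 7.48, 7.49 and 7.32 in controls. All compound 197 values lay above all control values, with rats 1 and 2 the highest. Klf15 rose by 1.27 ± 0.22 (95% interval 0.78 to 1.76, adjusted p = 0.00193 in limma), and the rise lay between 0.97 and 1.88 under all alternatives.

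Becn1 encodes Beclin 1, a subunit of the lipid kinase complex that starts the autophagosome membrane. Its log2 intensity was 9.78, 9.97, 9.77 and 9.85 in compound 197 rats, against 7.12, 7.42, 6.95 and 7.52 in controls. The groups were far apart relative to their spread, at 9.84 ± 0.093 in compound 197 rats and 7.25 ± 0.26 in controls (SD, n = 4 each). Raw intensities showed the same gap, with 1050.8, 1013.4, 966.2 and 1130.5 in compound 197 rats and 211.7, 237.8, 170.7 and 247.9 in controls. Becn1 rose by 2.59 ± 0.14 (95% interval 2.27 to 2.90, adjusted p = 8.84e-07 in limma), and by 2.06 to 3.20 under the alternatives. It was the 253rd largest rise of the 9873 probes tested.

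Map1lc3b encodes LC3B, the ubiquitin-like protein that is joined to lipid on the growing membrane. Its log2 intensity was 13.40, 13.32, 13.21 and 13.17 in compound 197 rats, against 13.49, 13.46, 13.60 and 13.49 in controls. All compound 197 values lay below all control values, by a small margin. The change was -0.23 ± 0.095 (95% interval -0.45 to -0.02, adjusted p = 0.0768 in limma), close to the median change of all probes. It was called lower with the authors' deposited normalized values (-0.22, adjusted p = 0.0420) and lay above 0 with median scaling (0.37, adjusted p = 0.239). The signal is of the mRNA and says nothing of the lipid-bound form.

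Sqstm1 encodes p62, a receptor that binds ubiquitinated cargo on one side and LC3 on the other. On probe ILMN_1375496 its log2 intensity was 7.84, 7.87, 7.91 and 7.94 in compound 197 rats, against 8.45, 7.48, 8.40 and 8.15 in controls. On probe ILMN_1376089 it was 11.86, 11.61, 11.78 and 11.60 in compound 197 rats, against 11.88, 11.86, 12.09 and 11.80 in controls. On probe ILMN_1376894 it was 9.21, 8.82, 9.14 and 8.81 in compound 197 rats, against 8.93, 9.16, 9.48 and 9.39 in controls. The groups overlapped on all 3 probes, with similar changes of -0.23 ± 0.20, -0.20 ± 0.11 and -0.25 ± 0.16 (adjusted p = 0.389, 0.179 and 0.229 in limma). With median scaling the 3 changes were 0.33 to 0.40 and with cyclic loess -0.05 to 0.02. Without control replicate 2, probe ILMN_1375496 was called lower (-0.44 ± 0.11, adjusted p = 0.0146). The log2 ratios between the 3 probes on the same array differed between the groups by -0.03, 0.02 and 0.05, with exact two-sided permutation p of 0.886, 0.943 and 0.686 (each 0.943 adjusted over 4 pairs).

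**Figure D1:**
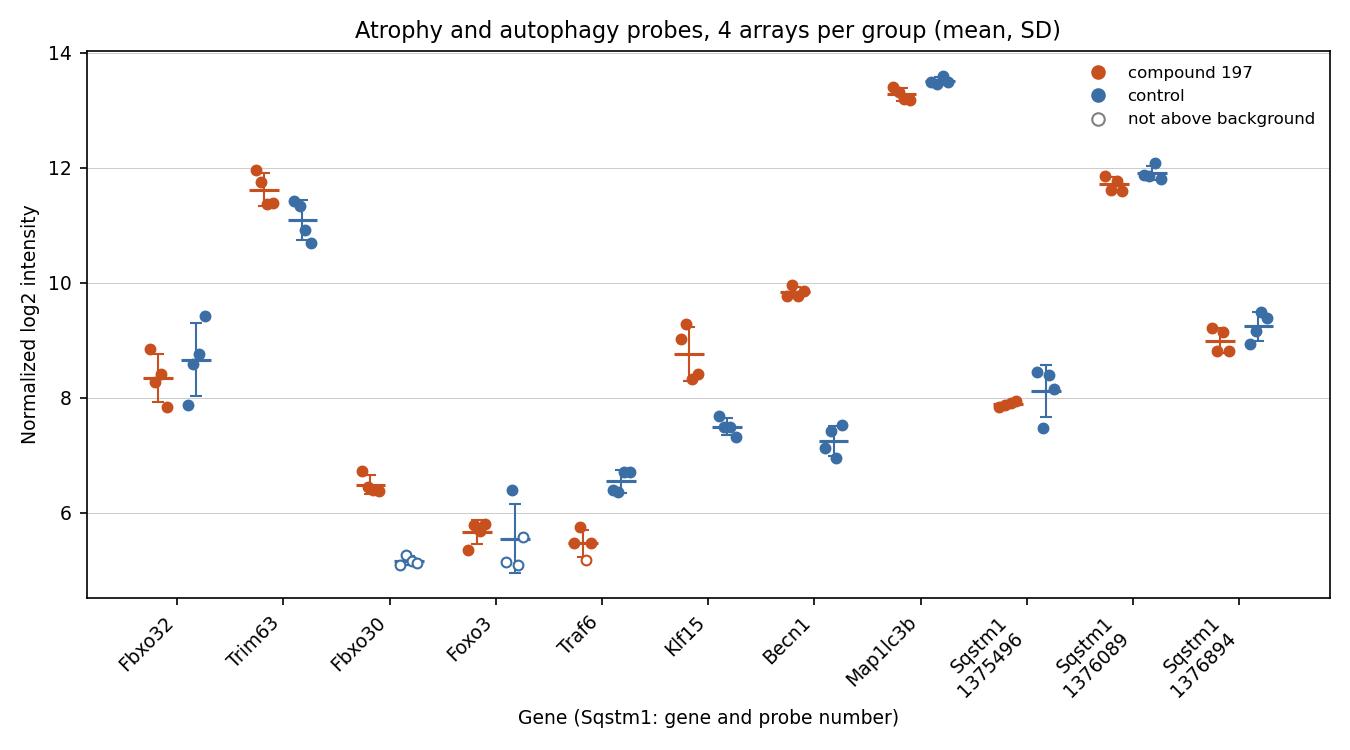
Normalized log2 intensity of the 11 member probes on each array, compound 197 left of control for each gene, with the mean (bar), SD (whisker) and open circles for arrays not above background. Becn1, Klf15 and Fbxo30 were higher and Traf6 lower with no overlap, while the groups overlapped for Fbxo32, Trim63, Foxo3 and all 3 Sqstm1 probes.

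Sqstm1 is the only member read by more than 1 probe, so the calls of Becn1, Klf15, Fbxo30 and Traf6 each rest on a single probe. Across the array, 131 named genes had several tested probes. Of 42 probes called higher among them, 4 had a partner probe of the same gene called higher and 9 a partner called lower. Of 65 called lower, 14 had a partner called lower and 9 a partner called higher. Among all tested probes, 16.3% were called higher and 24.2% lower. The 4 of 42 and 14 of 65 with a partner called the same way were no larger shares than these. A call on 1 probe was thus often not repeated by another probe of its gene, and how the single-probe calls of the members would fare was not tested.

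All 4 compound 197 arrays lay above all 4 controls for 3 member probes (Fbxo30, Klf15 and Becn1) and below them for 2 (Traf6 and Map1lc3b). Over all probes tested, 16.2% lay wholly above and 23.8% wholly below. Median scaling called 4 members higher and 1 lower, beside 23.2% and 1.91% of all probes. With cyclic loess the members' counts were again 4 and 1, beside 19.4% and 8.02% of all probes. Trim63 was the added call in both, and Traf6 the fall in both.

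**Figure D2:**
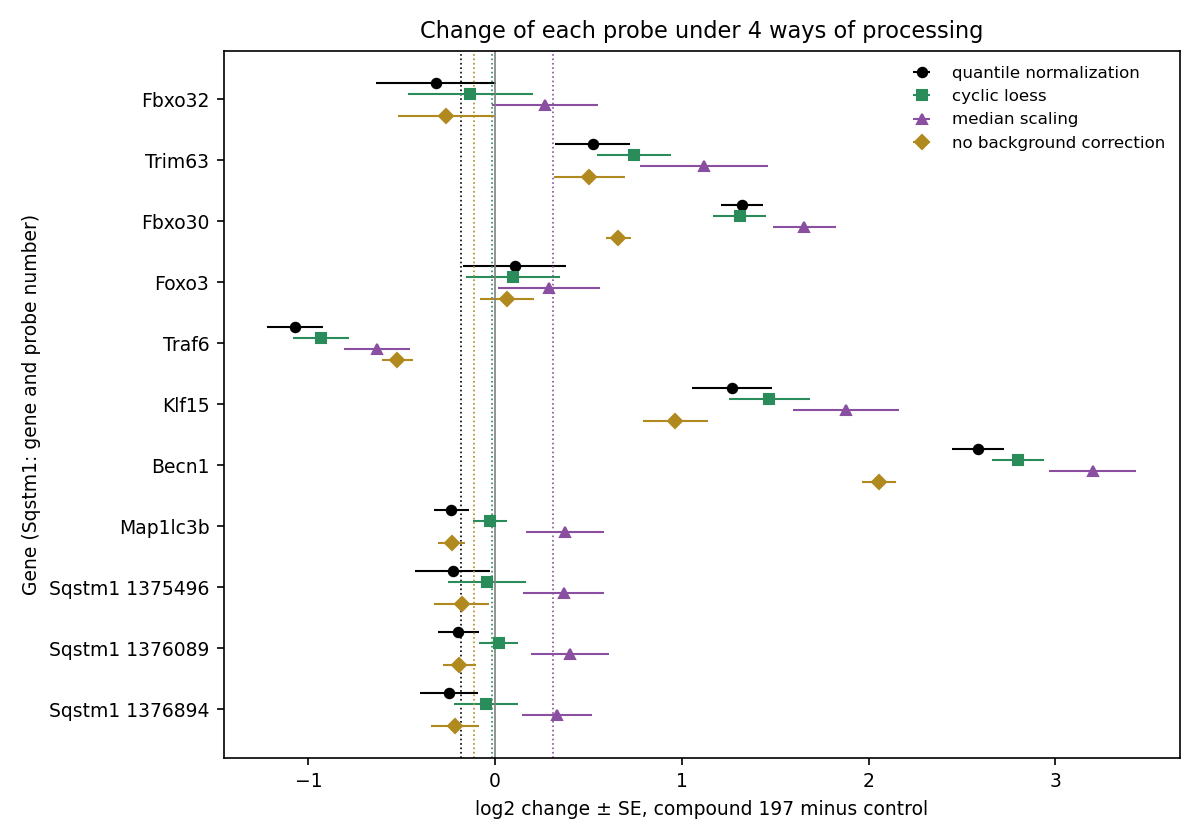
log2 change ± SE of each member probe, compound 197 minus control, with quantile normalization, cyclic loess, median scaling and no background correction, and dotted lines at the median change of all tested probes in each. Becn1, Klf15 and Fbxo30 stay above 0 and Traf6 below 0 in all 4, while Fbxo32, Map1lc3b and the 3 Sqstm1 probes lie above 0 with median scaling.

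The remaining genes of these pathways were followed through 11 lists with 181 tested probes. Of these, 25 were called higher (13.8%, beside 16.3% of all probes) and 54 lower (29.8%, beside 24.2%), with a median change of -0.29, beside -0.18 over all probes. With quantile normalization an excess of falls is thus seen over the whole array, and each list below is read beside the same 2 shares. With median scaling 43 of the 54 falls lay above 0, where the calls were 35 higher and 1 lower. All 54 stayed below 0 with cyclic loess, which called 29 list probes higher and 15 lower. The probes of Ube2a, Cand1, Ywhag, Psma1 and Atg16l1 passed the detection filter through the compound 197 arrays alone, so they had to be higher there to be tested, and they are not tested when any 1 compound 197 array is left out. Their adjusted p is no independent support for the rise. Genes are named from each list by their smallest adjusted p, and the few others, named because a count was small or a change large, were chosen after their values were seen.

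Of 19 tested probes for other ubiquitin ligases linked to muscle wasting, limma called 8 lower (42.1%, beside 24.2% of all probes) and 0 higher (beside 16.3%), or 10 and 1 at an unadjusted p under 0.05, with a median change of -0.36, but 7 of the 8 lay above 0 with median scaling. Stub1, which encodes the chaperone-linked ligase CHIP, was the fall that remained below 0 with each scaling, by 0.83 ± 0.10 (adjusted p = 0.0003), and -0.23 with median scaling. Rnf19a, a RING-type ligase, fell by 0.54 ± 0.10 (adjusted p = 0.00311) and Ubr4, an N-recognin, by 0.47 ± 0.12 (adjusted p = 0.0140), at 0.03 and 0.15 with median scaling. Both probes of Ubr2, the N-recognin induced in wasting mouse muscle, were called lower (-0.50 ± 0.15 and -0.36 ± 0.12), at 0.19 and 0.23 with median scaling. The first of these calls was lost without compound 197 replicate 3 or 4 and without control replicate 1, 3 or 4 (adjusted p 0.0546 to 0.0743). The 8 falls became 3 without compound 197 replicate 3 or 4, 4 without control replicate 4, and 5 without control replicate 1 or 2. Median scaling called 4 of these probes higher and 0 lower, and cyclic loess called 2 higher and 2 lower.

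Genes of ubiquitin, its activating and conjugating enzymes and deubiquitinases had calls both ways, as did all probes. Of 20 tested probes, 3 were called higher (15%, beside 16.3% of all probes) and 7 lower (35%, beside 24.2%). With median scaling 6 of the 7 lay above 0. Ube2g1, a conjugating enzyme, rose by 1.36 ± 0.13 (adjusted p = 4.59e-05). Ube2a, another conjugating enzyme, was above background on no control array and was at least 1.75-fold higher (1.30-fold without background correction, adjusted p = 1.03e-05). Usp28, a deubiquitinase, completed the rises at 0.55 ± 0.15. Usp13, a deubiquitinase, fell by 0.89 ± 0.15 (adjusted p = 0.00167) and remained at -0.28 with median scaling, whereas Ube2l3 fell by 0.55 ± 0.11 and was at 0.02. The 3 rises became 1 without compound 197 replicate 1 or 4, and the 7 falls became 4 without compound 197 replicate 1 or 3.

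The SCF core, the cullin scaffold on which Fbxo32 and Fbxo30 act, had 9 of 10 tested probes called. Of the 10, 3 were called higher (30%, beside 16.3% of all probes) and 6 lower (60%, beside 24.2%). Those called higher were Cand1, which exchanges F-box proteins on the cullin and was at least 4.596-fold higher (2.33-fold without background correction, adjusted p = 5.12e-07), Uba3 (1.18 ± 0.17) and Cops5 (1.01 ± 0.14). Uba3 is part of the enzyme that activates NEDD8, and Cops5 is the signalosome subunit that removes NEDD8 from cullins. Nedd8 itself fell by 0.55 ± 0.094 (adjusted p = 0.00193), and 5 other probes, among them Skp1, Rbx1, Cul1 and Nae1, fell by 0.27 to 0.59. Nae1, of the same NEDD8-activating enzyme as Uba3, was at -0.37 ± 0.097 (adjusted p = 0.0151 in limma), so the 2 went opposite ways. All 6 falls lay above 0 with median scaling. They became 3 without compound 197 replicate 2 or 4. Median scaling called 3 of the 10 probes higher and 0 lower, and cyclic loess called 3 higher and 2 lower.

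Among genes of insulin, AKT and FOXO regulation, 3 of 15 tested probes were called higher and 5 lower. These shares were 20% and 33.3%, beside 16.3% and 24.2% of all probes. Ywhag, a 14-3-3 protein of the family that holds phosphorylated FOXO in the cytoplasm, was above background on no control array and at least 9.91-fold higher (4.23-fold without background correction, adjusted p = 1.96e-08). Cited2, a transcriptional co-regulator, rose by 2.28 ± 0.22 (adjusted p = 5.51e-05) and Sirt2, a deacetylase, by 0.58 ± 0.12. Akt2, the main insulin-responsive AKT of muscle, fell by 0.67 ± 0.12 (adjusted p = 0.00251) and was at -0.08 with median scaling. The other falls were Usp7, Ywhaz, Prmt6 and Ywhae, by 0.37 to 0.53, all above 0 with median scaling. Thus 3 genes for 14-3-3 proteins were called, 1 higher and 2 lower, while the tested probes of Ywhab (-0.31 ± 0.15) and Ywhaq (-0.32 ± 0.11) were not called. With so few probes, nothing particular to 14-3-3 genes is read from these counts. The 5 falls became 2 without compound 197 replicate 1 and 3 without compound 197 replicate 3 or control replicate 1.

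Genes known as FOXO targets showed 4 rises and 2 falls in 23 tested probes, with a median change of -0.11. That is 17.4% higher, beside 16.3% of all probes, and 8.70% lower, beside 24.2%. Psma1, a subunit of the proteasome core, was above background on no control array and at least 6.35-fold higher (2.96-fold without background correction, adjusted p = 5.26e-08). Gadd45a, a stress-induced growth arrest gene, rose by 1.04 ± 0.19 (adjusted p = 0.0025), Cdkn1b, a cyclin kinase inhibitor, by 0.88 ± 0.11 and Pink1, a mitochondrial quality control kinase, by 0.85 ± 0.15. Catalase (Cat) fell by 0.79 ± 0.22 (adjusted p = 0.0213) and remained at -0.20 with median scaling, while Pdk4, a brake on glucose oxidation, fell by 0.44 ± 0.14 and was at 0.16. The 2 falls became 0 without compound 197 replicate 2 or 4 and 1 without control replicate 3 or 4. Bnip3, a mitophagy receptor, varied too much for a call, at 1.94 ± 1.18 (adjusted p = 0.215).

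Of 16 probes listed for the glucocorticoid receptor and its other targets, 13 were tested, and none of these reads the receptor gene itself. Limma called none of the 13, beside 16.3% of all probes called higher and 24.2% lower. At an unadjusted p under 0.05 in limma, 1 was lower and 0 higher. Median scaling called 1 of the 13 higher. Their median change was -0.32. The largest changes were those of Zbtb16, a zinc finger repressor, at -0.72 ± 0.35 (adjusted p = 0.129), and Per1, a clock gene, at -0.69 ± 0.62 (adjusted p = 0.397). Per1 was called lower without control replicate 4 (-1.30, adjusted p = 0.0369). Without control replicate 3 the counts were 1 higher and 1 lower, and without compound 197 replicate 2 they were 0 and 1.

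In the TRAF6 and NF-kB list, 7 of 21 tested probes were called lower (33.3%, beside 24.2% of all probes) and 1 higher (4.76%, beside 16.3%). Rela, the p65 subunit of NF-kB, fell by 0.70 ± 0.12 (adjusted p = 0.00231) and the TNF receptor gene Tnfrsf1a by 0.58 ± 0.10 (adjusted p = 0.00239), at -0.05 and -0.00 with median scaling. Irak1, the kinase that hands receptor signals to TRAF6, fell by 1.12 ± 0.29 (adjusted p = 0.0146) and stayed at -0.53 with median scaling. Of the 7 falls in this list, 2 lay above 0 with that scaling. Median scaling called 1 of the 21 probes higher and 1 lower, and cyclic loess called 1 higher and 2 lower. The first of 2 Chuk probes fell by 0.44 ± 0.091 while its partner was at -0.05 ± 0.13 (adjusted p = 0.759). Tollip, an inhibitor of this route that also acts as an autophagy receptor, rose by 0.81 ± 0.11 (adjusted p = 0.000628), with 2 of 4 control arrays above background.

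**Figure D3:**
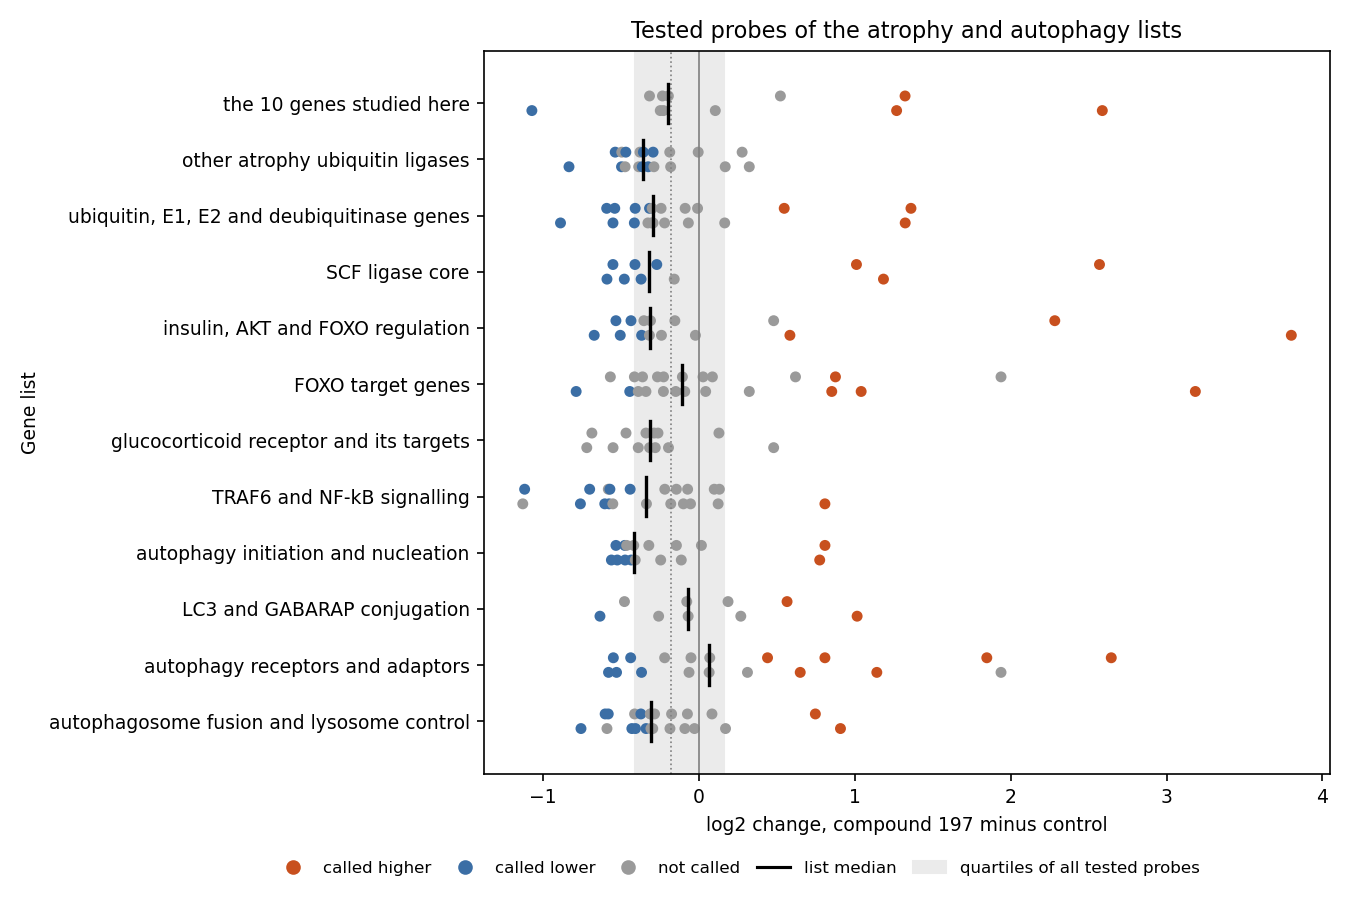
log2 change, compound 197 minus control, of each tested probe by gene list, coloured by call, with the list median (bar), the median of all tested probes (dotted line) and the quartiles of all tested probes (edges of the grey band). Most list medians lie below 0 and the changes furthest from 0 are rises, and with median scaling 43 of the 54 called falls lie above 0.

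Around Becn1, among the genes that start an autophagosome, 2 of 16 tested probes were called higher (12.5%, beside 16.3% of all probes) and 6 lower (37.5%, beside 24.2%), with a median change of -0.41. The rises were Ambra1, a Beclin 1 partner, by 0.81 ± 0.16 (adjusted p = 0.00489), and Sh3glb1, which joins the Beclin 1 complex through UVRAG, by 0.77 ± 0.10 (adjusted p = 0.00048). Wdr45, a lipid-binding WIPI protein, fell by 0.53 ± 0.094 (adjusted p = 0.0024) and Atg101, a subunit of the ULK1 kinase complex, by 0.56 ± 0.12. All 6 falls lay above 0 with median scaling. They became 3 without compound 197 replicate 1.

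Of 9 tested probes of the LC3 and GABARAP conjugation machinery, 2 were called higher and 1 lower. Those shares were 22.2% and 11.1%, beside 16.3% and 24.2% of all probes. Atg16l1, the scaffold that places the conjugation enzyme on the membrane, was above background on no control array and at least 1.44-fold higher (1.18-fold without background correction, adjusted p = 9.61e-05). Atg3, the enzyme that transfers LC3 to lipid, rose by 0.57 ± 0.18 (adjusted p = 0.0353). That call was lost without any 1 compound 197 array and without control replicate 2 or 3 (adjusted p 0.0586 to 0.0912). Atg7, which activates LC3, fell by 0.64 ± 0.11 (adjusted p = 0.00231) and was at 0.03 with median scaling. Without any 1 of the compound 197 arrays, 0 of the 8 probes still tested was called higher, and without control replicate 3 there were 1 higher and 2 lower.

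Several receptors that share p62's task were higher, by more than any Sqstm1 probe moved, while other probes of this list were lower. Of 18 tested probes, 6 were called higher (33.3%, beside 16.3% of all probes) and 5 lower (27.8%, beside 24.2%), with a median change of 0.07. Optn, which encodes optineurin, a receptor of ubiquitinated mitochondria and bacteria, had log2 intensities of 10.38, 10.66, 10.40 and 10.57 in compound 197 rats, against 8.004, 8.06, 7.45 and 7.92 in controls. It rose by 2.65 ± 0.15 (adjusted p = 1.22e-06), and each compound 197 value lay above each control. Tax1bp1, a receptor that also binds ubiquitin and LC3, had 9.77, 9.997, 9.64 and 9.68 in compound 197 rats, against 7.84, 8.32, 7.49 and 8.05 in controls, and rose by 1.85 ± 0.18 (adjusted p = 4.95e-05). Nbr1, a p62-related receptor tied to titin signalling in muscle, had 7.25, 6.86, 7.03 and 7.09 in compound 197 rats, against 5.93, 6.32, 5.93 and 5.50 in controls. It rose by 1.14 ± 0.17 (adjusted p = 0.000955), with 3 of 4 control arrays above background. Tollip, given above, Phb2 and Stbd1 were the other rises, the last of them by 0.44 ± 0.13. The falls were Vcp, Bag3, Ccpg1, Bnip3l and Keap1, by 0.37 to 0.58, and all 5 lay above 0 with median scaling.

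**Figure D4:**
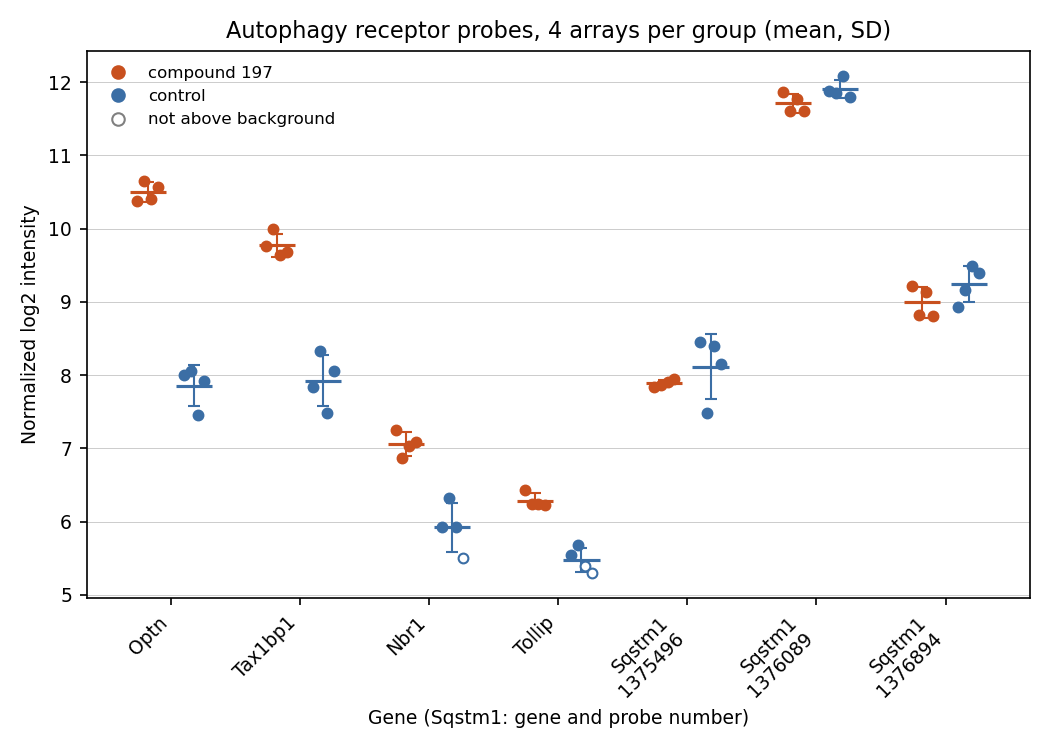
Normalized log2 intensity of the probes of Optn, Tax1bp1, Nbr1, Tollip and Sqstm1 on each array, compound 197 left of control, with the mean (bar), SD (whisker) and open circles for arrays not above background. Optn, Tax1bp1, Nbr1 and Tollip separate the groups without overlap, and the 3 Sqstm1 probes do not. These 4 were chosen among the 6 probes called higher in their list, and the 5 called lower are not drawn.

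At the last step, fusion with the lysosome and its control by mTORC1, 2 of 23 tested probes were called higher and 7 lower. The shares were 8.70% and 30.4%, beside 16.3% and 24.2% of all probes. Lamtor2, a subunit of the Ragulator complex that anchors mTORC1 to the lysosome, rose by 0.91 ± 0.14 (adjusted p = 0.000965), while Lamtor1 of the same complex fell by 0.60 ± 0.099 (adjusted p = 0.00164) and was at -0.03 with median scaling. Within the HOPS tethering complex, Vps33a rose by 0.75 ± 0.13 (adjusted p = 0.00258) and Vps18 fell by 0.76 ± 0.097 (adjusted p = 0.000341), at -0.08 with median scaling. Of the 7 falls, 5 lay above 0 with that scaling. They became 4 without compound 197 replicate 2 or 4.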

How the data were processed

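Total RNA from the thigh muscle of 8 rats, 4 per group as the labels name them, was read on 1-colour beadchips. Per the file headers, the authors deposited intensity values without and with normalization, each beside detection p-values. No source used here states how they normalized. All columns of the normalized table hold the same sorted values, the series matrix equals that table in every cell, and 0 columns belong to other samples. Depth has no meaning here: the number of arrays limits the precision.

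From the deposited non-normalized values, log2 levels were computed with limma 3.58.1 in R 4.3.3 (neqc, offset 16, background from the detection p-values, quantile normalization). Probes with a detection p under 0.05 on at least 4 of 8 arrays were fitted with lmFit and eBayes and adjusted by Benjamini-Hochberg over all 9873. The fit was tested on simulated data. Fold bounds use the lowest signal above background. Log2 ratios of probe pairs on the same array were compared between the groups by exact permutation tests. Probes were named by the array's annotation, and promoter windows come from RefSeq tables.

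The members and lists were chosen with earlier results of these data known. Named genes were all member probes and, from each list, up to 4 called probes with the smallest adjusted p, or the 2 largest changes where fewer than 2 passed. Alternatives changed the background correction, scaling, source of values, filter, probe summary, variance model, threshold, pairing and arrays included. Each array is 1 rat, and slide, scan and cage are not given, so no batch could be fitted. Figures were drawn with matplotlib 3.10.9.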

Additional observations from a re-analysis of the deposited data

Results flagged for a closer look

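Among 22 sets of 4 arrays, the 11 member probes in each group, 0 had a lowest or highest array that stood apart from the other arrays of its group by Dixon's test.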

How the results depend on the processing

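Of 232 values of member changes under 22 alternatives, 222 kept their direction, where called, and their side of the threshold, 10 newly passed it and 0 lost it or reversed. An alternative that did not test a probe gave no value for it, so Fbxo30 has 17 values and Traf6 21. Members called higher numbered 2 in place of 3 when detection on all 8 arrays was required and without any 1 compound 197 array. Fbxo30 was not tested in these settings. Members called higher numbered 4 with median scaling, with cyclic loess, relative to the median change, and without control replicate 1, through Trim63. Members called lower numbered 2 in place of 1 with no background correction, with the authors' deposited normalized values, with no filter, and with trend and robust variances, through Map1lc3b, and 0 when detection on all 8 arrays was required, where Traf6 was not tested. On leaving out 1 array they numbered 1 to 2. List probes called lower, 54 as reported, were 1 with median scaling, 15 with cyclic loess, 19 relative to the median change, 23 at an adjusted p under 0.01 and 35 to 52 on leaving out 1 array, lowest without compound 197 replicate 4. All probes called higher, 1613 as reported, were 905 with detection on all 8 arrays, 931 with 1 probe per gene and 1038 to 1626 on leaving out 1 array. All probes called lower, 2386 as reported, were 189 with median scaling, 792 with cyclic loess, 842 relative to the median change, 983 at an adjusted p under 0.01 and 1528 to 2250 on leaving out 1 array. Fewer probes are tested when an array is left out or the filter is stricter. Otherwise the cause was not tested.

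The labels do not say whether the replicate numbers shared by the groups pair the rats. Deviations of same-numbered arrays correlated at -0.04, -0.09, -0.13 and -0.09, and none correlated best with its own number. Such correlations show no pairing over the whole profile but cannot exclude a pairing in the design. With the number as a block, 4 members were called higher and 1 lower, Trim63 being the added call (0.52 ± 0.11, adjusted p = 0.0182 in limma), with 24 list probes higher and 37 lower, and 1492 of all probes higher and 1750 lower.

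Signal over background limits Fbxo30, Foxo3 and Traf6, which lie near the floor in 1 or both groups, and 4 arrays per group limit Fbxo32, Foxo3 and Sqstm1, whose intervals span 0.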
